A study of Mus musculus with 32 samples.

Results

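The hippocampal synapse fraction on day 20 was examined through its ac4C peak lists, 1 of the learning group and 1 of its control group. Peaks in these lists mark stretches of RNA that an antibody against N4-acetylcytidine enriched over the input. Members were all peaks of the SYN-L and SYN-C lists of day 20, with 5855 and 5586 peaks. Together they made 11441 of the 148981 peaks in the 16 lists of captured libraries of the series. Both samples were hippocampus of C57BL6/J mice, and the peak names inside the files read Learning for L and Control for C. The series title sets the lists in a study of learning and memory, and the sources used here do not give the task, the age or sex of the animals, or whether several animals were pooled. Other lists of the series came from the synapse fraction on days 1 and 6, from homogenate on day 6, and from 2 pairs of samples that the labels write C and cKO, with no gene named. With 1 list in each group, no difference on day 20 has a replicate check and no test was made.

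N4-acetylcytidine, ac4C, is a cytidine that carries an acetyl group on its base. The acetyltransferase NAT10 writes it on ribosomal RNA, on transfer RNA together with its partner THUMPD1, and on messenger RNA, where it has been tied to RNA stability and translation. Synapses hold local pools of messenger RNA that can be translated near the spine or the terminal, and a synapse fraction samples such RNA together with that of other material that sediments with it.

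The transcribed starts below lie under day 20 peaks of high fold, a value of the whole peak and not of the start. Each is the first 30 bases of an annotated transcript from RefSeq, build GRCm38.p6, read 5′ to 3′ on the gene's strand. The genes were chosen after their values were seen, as the 4 per class with the highest fold percentile among starts fully covered by a peak of that gene. Fold is the enrichment that the authors gave each peak, used here to rank peaks within their own list and not compared between lists. Capitals mark the cytidines of the repeat CNNCNNCNN, which acRIP-seq studies report at ac4C sites. In the first set both lists covered the start, in the second the L list did and the gene had no C peak, and in the third the reverse.
Kpnb1, in both, chr11:97187863-97187892, minus strand: tttCtcCCtCCgCCgCCcgagCagCagCcg
Cadm4, in both, chr7:24482023-24482052, plus strand: gggaggtgcaggtgccgggccgggagcgag
Ube2k, in both, chr5:65537245-65537274, plus strand: gccgcccggtcgggtcagcgtggtgcgcat
Phf10, in both, chr17:14961231-14961260, minus strand: gCggCggCggCcgCtgggactaggcgaagg
Arhgap44, in L, chr11:65162932-65162961, minus strand: cggggaccacccggccagctggctagccag
Hmgn1, in L, chr16:96127696-96127725, minus strand: CtcCCaCCgCCcCCgCgaCgggtcgcagca
Dpp8, in L, chr9:65032458-65032487, plus strand: ttCgCCtCCgCCgCttttaagtcccttcgt
Prmt3, in L, chr7:49778358-49778387, plus strand: agcgctctccggacggttcacgctccgcgt
Mboat2, in C, chr12:24831599-24831628, plus strand: gcgCcgCtgCatCccCatCctCggCgtagc
Ppa2, in C, chr3:133310110-133310139, plus strand: cgaccctgcggttctcgcagaccgtccgcc
Ranbp2, in C, chr10:58446852-58446881, plus strand: acgccctgtgcccatccgttcgcgacggag
Lats1, in C, chr10:7681209-7681238, plus strand: gacacggagtggaaggcaaaatggcggcgg

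Of these starts, 5 held the repeat, and it appeared in each of the 3 sets. Kpnb1, which encodes the nuclear import receptor importin beta, held 6 matches under a C peak of fold 35.7 and an L peak of fold 25.8. Hmgn1, a nucleosome-binding protein gene, held 7 matches under an L peak of fold 16. Mboat2, a membrane-bound O-acyltransferase gene, held 6 matches under a C peak of fold 27.4. Of the printed L starts without a C peak, that under the highest fold, in the GTPase-activating protein gene Arhgap44 at 22.4, held none. Over all 32851 starts of the RefSeq table, 32.1% held at least 1 match in their first 30 bases. Starts covered in both lists held it in 56.7% of 104 (exact 95% binomial interval 46.65% to 66.41%). The share was 51.2% of 84 starts for L with no C peak (40.04% to 62.26%) and 42.7% of 96 for C with no L peak (32.66% to 53.22%), and these intervals overlap. The same letters read on the opposite strand were also more frequent under peaks, at 74.0% of starts covered in both against 40.9% of all. Covered starts were richer in both bases, with 32.7% C and 41.3% G in the set covered in both against 26.2% and 30.3% over all starts. A match is a description of these letters and marks no measured site.

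Of the 4331 genes named by a peak in either day 20 list, 2351 (54.3%) had a peak in both, 977 (22.6%) in L alone and 1003 (23.2%) in C alone. Position gave a lower agreement than gene name. An L peak overlapped 1805 of the 5586 C peaks by at least 1 base (32.3%, exact interval 31.09% to 33.56%), and a C peak overlapped 1903 of the 5855 L peaks (32.5%, 31.3% to 33.72%). Of the 2351 genes with peaks in both lists, 1489 had peaks at the same place and 862 (36.7%) had them at different places. These intervals cover counting error among peaks alone. A gene with no peak in a list may have had signal under the authors' threshold, and a peak list cannot tell less ac4C from less of the RNA or fewer cells that hold it.

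The lists were cut differently, and this touches each count that follows. C peaks were at least 200 bp long and L peaks at least 175 bp, with 1285 L peaks (21.9%) at exactly that floor and 1038 C peaks (18.6%) at theirs. In all, 2187 L peaks (37.4%) were shorter than any C peak, and 362 of the 977 genes of L alone were named by such peaks and no longer one. When peaks of at least 200 bp were compared, 615 genes (15.5%) had a peak in L alone, 1544 (38.9%) in C alone and 1810 (45.6%) in both, and the ratio of L to C peaks turned from 1.05 to 0.657. Why the floors differ is not given in the sources used here, and their effect cannot be told apart from that of the groups.

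Overlap depended on how strong and how long a peak was. Among C peaks, 23.9% of the 20% with the lowest fold were overlapped by an L peak (exact interval 21.41% to 26.49%), against 42.3% of the 20% with the highest fold (39.43% to 45.3%). Among L peaks these shares were 27.0% (24.46% to 29.63%) and 42.4% (39.59% to 45.33%). Length gave a wider range. C peaks of 200 to 249 bp were overlapped in 21.3% of cases and those of 800 bp or more in 72.7%. L peaks under 200 bp were overlapped in 21.0% and those of 800 bp or more in 81.0%. Longer peaks also have more bases with which to overlap, and that part of the trend was not tested.

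**Figure D1:**
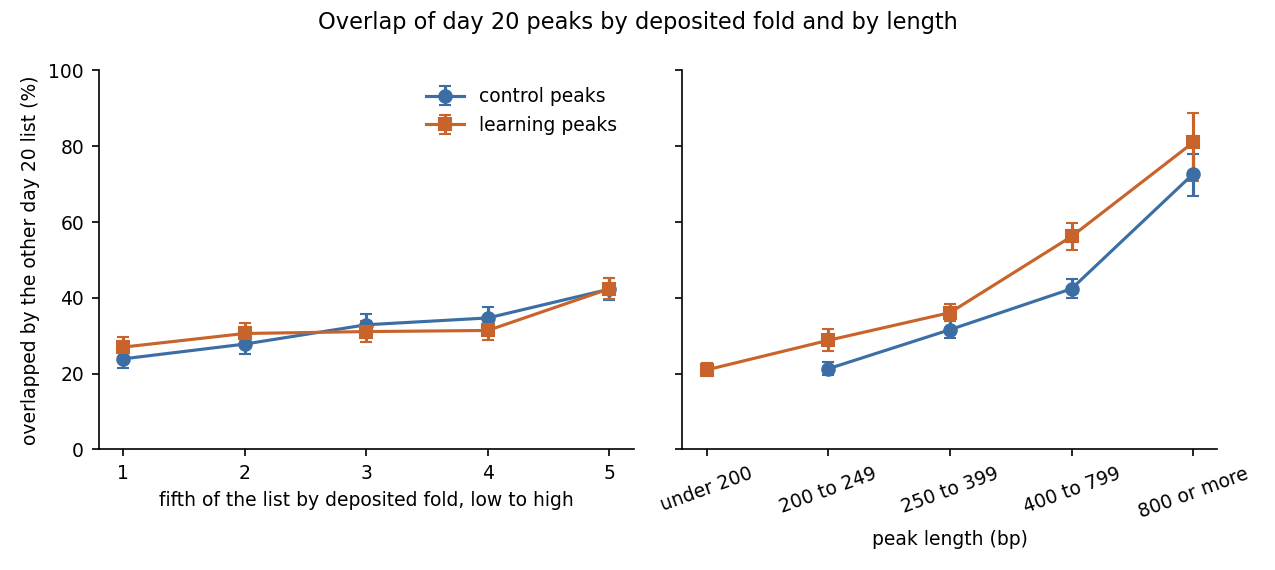
Share of day 20 peaks overlapped by the other list (%), for C (circles) and L peaks (squares), by 5 equal groups of the deposited fold (left) and by peak length in bp (right), with exact 95% binomial intervals as bars. The shares go from 23.9% (C) and 27.0% (L) in the lowest fold group to 42.3% and 42.4% in the highest, and the longest peaks reach 72.7% and 81.0%.

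The first 10% of the gene held a larger share of the overlapped peaks than of peaks whose gene was marked elsewhere in the other list. Among peaks with a known gene strand, 45.2% of the overlapped C peaks (exact interval 42.47% to 48.0%) and 45.2% of the overlapped L peaks (42.51% to 47.9%) lay in the first 10% of the gene. Peaks of genes marked in both lists at other places lay there in 20.5% (C) and 24.1% (L) of cases. Peaks of genes with no peak in the other list lay there in 37.6% of cases in C (34.44% to 40.86%) and 44.4% in L (41.08% to 47.85%). Peaks in the first 10% were also overlapped more often at a given length. Among C peaks of 250 to 399 bp, 47.1% of those in the first 10% of the gene were overlapped, against 28.0% of those in the middle 80% of it. The L peaks of that length gave 50.3% and 31.3%. No exon annotation was used, so a place is given along the whole gene with its introns.

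**Figure D2:**
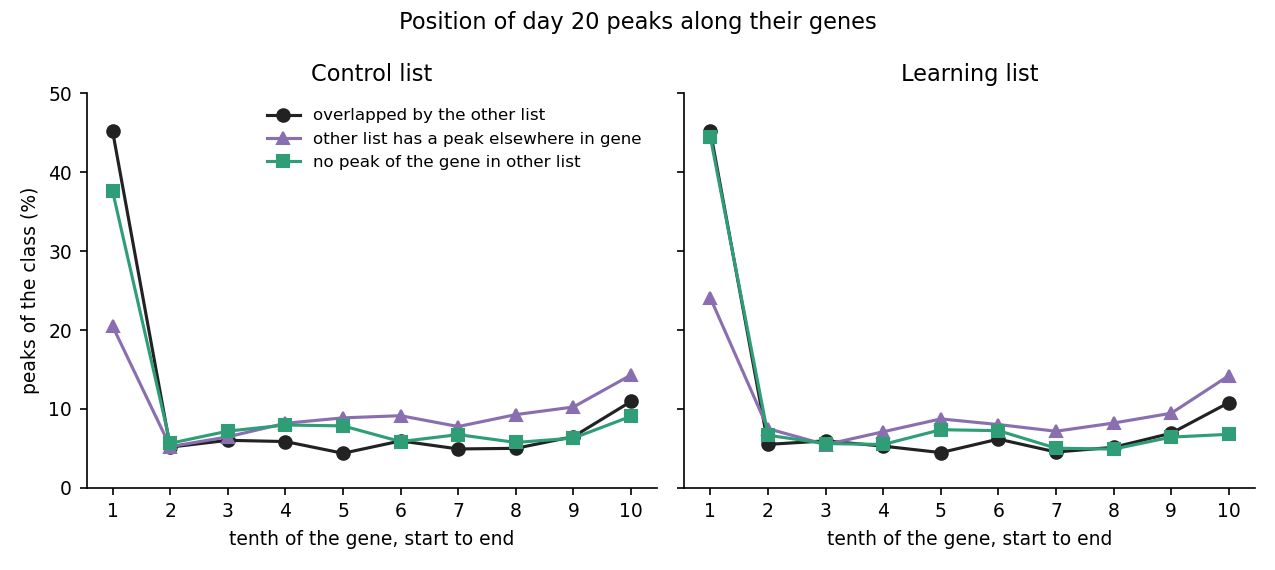
Share of positioned day 20 peaks (%) in each 10% of the gene's length, from start to end, for C (left) and L (right), in 3 classes: overlapped by the other list, peak elsewhere in the gene in the other list, and no peak of the gene in the other list. The first 10% holds 45.2% of overlapped peaks in each list and 20.5% (C) and 24.1% (L) of peaks whose gene was marked elsewhere.

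The strongest peaks shared by place lay on genes of varied function. Adra2c, the alpha-2C adrenergic receptor, had the highest fold of both lists, with a C peak of 1287 bp at fold 214 (chr5:35280387-35281673) and an L peak of 555 bp inside it at fold 78.8 (chr5:35281052-35281606). Cbarp, which encodes a protein that binds calcium channel beta subunits, followed with folds of 76.5 in C and 65.0 in L over nearly the same bases of chromosome 10. Gsk3a, a kinase of glycogen and Wnt signalling, had folds of 48.2 and 41.4 near its start. Hnrnpd, an RNA-binding protein that controls messenger decay, Abl2, a tyrosine kinase of the actin cytoskeleton, Trim8, a ubiquitin ligase, and Caln1, a neuronal calcium-binding protein, held folds of 24.0 or more in both lists. Zc3h13, a subunit of the m6A writer complex, had a peak of 840 bp in C at fold 23.5 and one of 880 bp in L at fold 37.0, with starts 4 bases apart. These genes, with Kpnb1 and the protocadherin Pcdhga3, make up the 10 strongest by the lower of the percentile ranks in the lists. All 10 had a peak in every other synapse list as well.

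By the authors' -log10 p-value rather than fold, the strongest peak of each list lay on a small noncoding RNA. It is named Rps29 in the files, and the RefSeq gene at its position is Rn7s1, a small cytoplasmic RNA, at chr12:69159294-69159524 in C and chr12:69159311-69159499 in L. Its deposited -log10 p-value was 70850.1 in C and 154215.3 in L, while its fold was 3.04 and 5.79. The second, named Eapp, lay on the small nuclear RNA gene Gm22513, with -log10 p-values of 4566.2 and 3535.1. Camk2n1, an inhibitor of CaMKII, Chgb, a granin of dense-core vesicles, and Ppp1r9b, the spine scaffold spinophilin, were among the next 6 in each list and lay in place. The 7th L peak, on the 14-3-3 gene Ywhah at fold 34.5, overlapped no C peak, although C had a peak elsewhere in that gene.

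Names and positions did not always match, which bears on each gene named below. In C, 81.5% of peaks lay within the span of the gene they name, 15.6% within another protein-coding gene and 2.97% in no protein-coding gene. In L these shares were 80.6%, 15.8% and 3.57%. Ndel1, named by 7 L and 8 C peaks, had its top peaks in Myh10, the gene of a nonmuscle myosin. The name Dpf1 carried 11 L and 6 C peaks, and its top C peak lay in Sipa1l3. Syne1, a giant nuclear envelope protein gene, and Plec, the cytoskeletal linker plectin, held many peaks inside their own spans, with 14 C and 11 L peaks for Syne1 and 11 and 9 for Plec. Chd5, a neuronal chromatin remodeller, had 9 L and 2 C peaks. Zmynd11, a reader of histone methylation, had 4 L and 10 C peaks. Over all shared genes, 725 had more peaks in L, 569 more in C and 1057 equal numbers.

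The 12 genes of L alone with the strongest peaks of at least 200 bp had folds from 17.4 to 60.3. For 6 of them the top peak lay inside the named gene, and 5 of these were centred at most 1074 bases after its start. Stk38, a kinase of the Hippo pathway family, had a peak of 283 bp at fold 22.8 (chr17:29007603-29007885), 266 bases into the gene. Arhgap44 had one of 412 bp at fold 22.4, and Palm, the gene of the membrane-shaping protein paralemmin, one of 316 bp at fold 21.7, centred 178 and 165 bases into their genes. Pcmtd2 had 2 L peaks with a highest fold of 19.8. Zfp91, a ubiquitin ligase gene, had an 825 bp peak at fold 26.9, and Dtx1, a regulator of Notch signalling, had 3 L peaks with a highest fold of 17.4. The remaining top names were less secure by position. The Snx32 peak, at fold 60.3, lay on the pseudogene Gm31166, the Rps26 peak in Ikzf4, the Aldh4a1 peak in Iffo2 and the Slc38a10 peak on a long noncoding RNA gene. The top peaks of Snapc2 and Usp38 lay in no RefSeq gene.

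The 12 strongest genes of C alone had folds from 23.1 to 43.9, and 9 had their top peak inside the named gene. Gprin3, an interactor of G proteins, led with a peak of 629 bp at fold 43.9 (chr6:59354140-59354768), far from its start at 87.8% of the gene's length. Erp44, an endoplasmic reticulum chaperone, followed at fold 33.6, and Mrpl17, a mitochondrial ribosomal protein, at fold 30.0. Lsm14b, an RNA granule protein, Mboat2 and Ppa2, a mitochondrial pyrophosphatase, had peaks centred 300, 248 and 105 bases after their starts at folds of 28.1, 27.4 and 25.5. Grpel1, a cochaperone of mitochondrial import, Lrrc41 and the secreted ligand Wnt4 had folds of 27.5, 23.6 and 23.6, the last with 3 peaks in C. The Ext2 peak lay in the neighbouring gene Accs, that of St3gal4 on long noncoding RNA genes, and that of Rap1gap in no RefSeq gene.

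Members of 14 gene lists were then counted by where their peaks lay, beside the shares of all 4331 genes given above. Counts within lists are small, lists share some members, and the members were not tested as sets. A gene counted in both lists need not have peaks at the same place. Peaks overlapped for 27 of 34 such presynaptic genes, 19 of 33 postsynaptic genes and 4 of 9 respiratory chain genes.

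**Figure D3:**
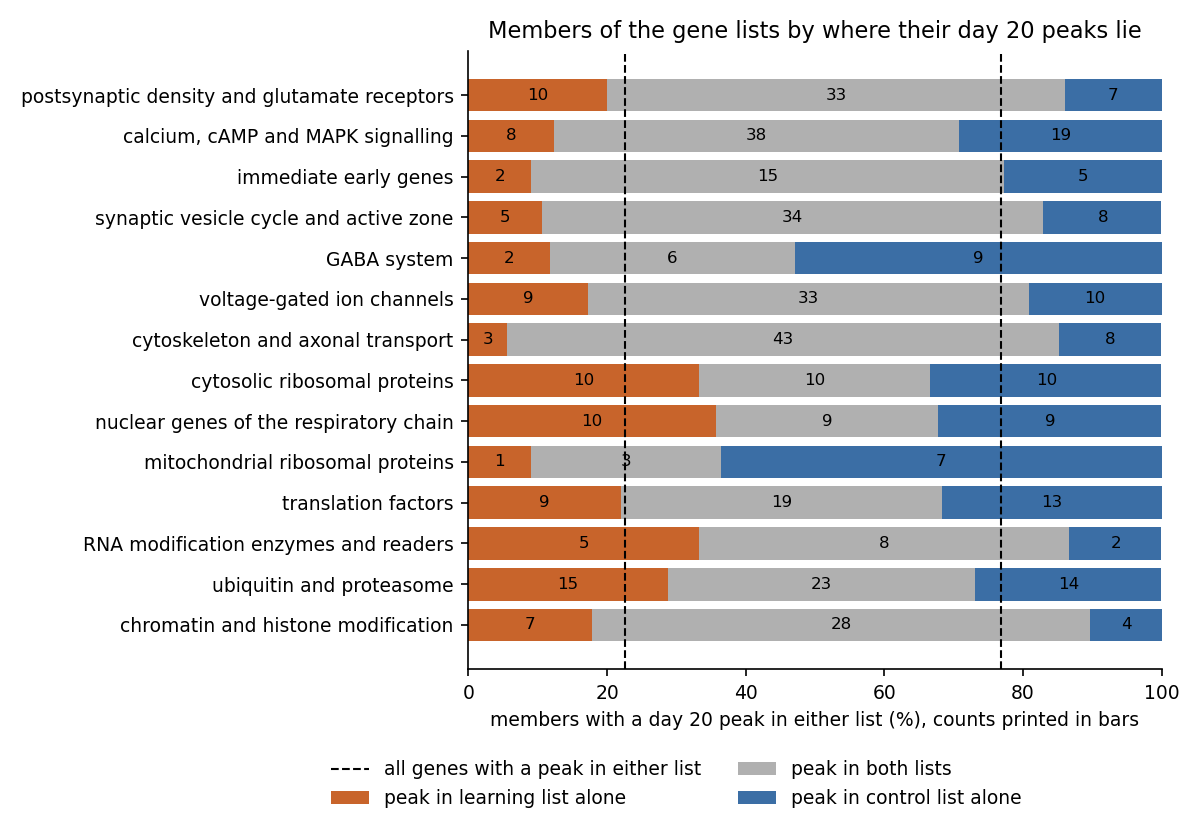
Members of 14 gene lists with a day 20 peak in either list (%), split into L alone, both and C alone, with the number of genes printed in each part. Dashed lines mark 22.6% from the left and 23.2% from the right, the shares over all 4331 genes, and the GABA system and the mitochondrial ribosomal proteins have the widest C parts, with 9 of 17 and 7 of 11.

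Postsynaptic genes were mostly marked in both lists. Of 70 listed genes of the postsynaptic density and glutamate receptors, 50 had a peak on day 20, 33 of them in both lists, 10 in L alone and 7 in C alone. Among the scaffold genes, Dlg4, which encodes PSD-95, Dlg1, which encodes SAP97, and Dlg2, which encodes PSD-93, each had peaks in L and none in C, while Dlg3 had 4 L and 3 C peaks. The Dlg4 peak was long and weak, 528 bp at fold 2.33, and the top peaks of Dlg1 and Dlg2 were at the 175 bp floor with folds of 3.9 and 6.13, a length below that of any C peak. Shank1, Shank2, Shank3, Dlgap1, Dlgap3, Dlgap4 and Homer1 had peaks in both, and Homer2 was in L alone at fold 6.64 over 399 bp. Dlgap2 was in C alone at fold 3.47.

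Receptor genes of glutamate showed peaks on both sides. The NMDA receptor genes Grin1, Grin2a, Grin2c and Grin3a and the AMPA receptor gene Gria1 had peaks in both lists, and Grin2b had none in either. Grik2, a kainate receptor gene, had 2 L peaks, the top one 411 bp long at fold 9.24 and centred 1321 bases into the gene, and no C peak. Grik1, its relative, had 1 C peak at fold 9.09 and no L peak. The kainate receptor partners were split too, with Neto2 in L at fold 2.73 and Neto1 in C at fold 3.56. Grm5, the metabotropic receptor mGluR5, had 1 L peak of 175 bp at fold 2.29, close to the authors' floor. The L peak named Gria2 lay within Glrb, a glycine receptor gene. The top C peaks named Cacng3, an AMPA receptor auxiliary subunit, and Prr7 lay within Prkcb and Grk6.

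Adhesion genes of the postsynapse followed no single direction. Nlgn1, neuroligin 1 of excitatory synapses, had 2 L peaks, the top one centred 1307 bases into the gene at fold 7.31, and none in C. Nlgn2 and Nlgn3 had peaks in both lists. Lrrtm3 was marked in C alone at fold 8.87, as was the name Lrrtm2, whose top peak lay in Ctnna1, the alpha-catenin gene that hosts it. The name Lrrc4c, which encodes a netrin-G ligand, had 3 L peaks, the top one at fold 8.66 in no RefSeq gene. Lrrc4b had the strongest shared peak of the list, 311 bp at fold 21.2 in C and 320 bp at fold 29.9 in L. Among peaks of at least 200 bp the list counted 6 genes in L alone and 12 in C alone, and the latter were 26.1% of its 46 genes beside 38.9% over all genes.

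Presynaptic genes were largely shared. Of 69 genes of the vesicle cycle and active zone, 47 had a peak, 34 in both lists, 5 in L alone and 8 in C alone. Slc17a7, the vesicular glutamate transporter VGLUT1, had an L peak of 376 bp at fold 8.97 near its start and no C peak, and Slc17a6, which encodes VGLUT2, had 2 C peaks at a top fold of 4.09 and no L peak. Syt1, the calcium sensor of fast release, Cplx2, a complexin, Cltc, the clathrin heavy chain, and Erc2 of the active zone completed the L genes, with top folds from 2.24 to 8.94. The C genes were Ap2a2, Syt5, Dnm1, Napa, Synj1, Syp and Syt11 beside Slc17a6, with top folds from 2.08 to 6.03. Dnm1, Synj1 and Ap2a2 take part in vesicle endocytosis, and Syp encodes synaptophysin, whose peak was at fold 2.34. All 5 L genes had a peak in each of the other synapse lists, C lists included. Syt7, a slow calcium sensor, had shared peaks at fold 12.4 in C over 1117 bp and 26.8 in L over 738 bp.

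Calcium, cAMP and MAPK signalling genes were named more often by C. Of 86 genes, 65 had a peak, with 38 in both lists, 8 (12.3%) in L alone and 19 (29.2%) in C alone, beside 22.6% and 23.2% over all genes. Braf, the kinase above MEK and ERK, had a C peak of 397 bp at fold 13.8 centred 540 bases into the gene. Rps6ka2, a kinase below ERK, had one at fold 13.2 inside the gene, and Sos1, a Ras activator, one of 615 bp at fold 10.5 near its start. Ep300, the acetyltransferase that CREB recruits, stood at fold 10.9, and Plcb4, Camk4, Dusp6 and Prkcz had top folds of 9.31, 8.78, 8.1 and 6.0. The top Dusp6 peak lay on a long noncoding RNA gene beside it.

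Further genes of the list were chosen for mention after their values were seen. Map2k2 had a C peak of 467 bp at fold 3.22 and Camkk1 one of 522 bp at fold 4.76. Camk1, Camk2d, Itpr1 and Rps6ka2 had a peak in none of the other 4 synapse lists, and each had one in at least 2 homogenate lists. The L genes included Ryr2, the ryanodine receptor, at fold 10.5, Plcb1 at 7.15, Rasgrp1 at 5.34, Pde4a, Adcy2 and Pde2a. Camk2a, Camk2b, Prkaca, Prkacb and Ppp3ca had peaks in both lists. With the gene taken from the position of the peak, the list counted 9 genes in L alone and 15 (23.4%) in C alone, beside 1181 in C alone of all 4717 genes so named. With peaks of at least 200 bp it counted 5 and 25 (40.3%), beside 38.9% over all genes. The C share of the list was thus near that of all genes under both alternatives. The L share stayed lower, at 14.1% by position beside 24.9% over all genes. With peaks of at least 200 bp it was 8.06% beside 15.5%.

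GABA genes had the largest C share among the synaptic lists. Of 29 genes, 17 had a peak, with 6 in both lists, 2 in L alone and 9 (52.9%) in C alone. Receptor subunits on the C side included Gabra5 at fold 9.98 and Gabra3 at 3.32. Gad2, which makes GABA in terminals, had 2 C peaks, the top one centred 681 bases into the gene at fold 11.1. Erbb4, a receptor of interneurons, stood at fold 3.67, and Abat, which breaks GABA down, at 3.48. For 6 of the 9 genes the top C peak had a fold of 3.48 or less, and these 9 peaks ranged from 200 to 356 bp. On the L side, the peak named Gabrg1 lay in Gabra2. Gphn, the scaffold gephyrin, and both GABA-B receptor genes were marked in both lists. By position the counts were 2 in L alone, 7 (43.8%) in C alone and 7 in both, and with peaks of at least 200 bp they were 1, 9 (56.2%) and 6.

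Ion channel genes were even. Of 74 voltage-gated channel genes, 52 had a peak, 33 in both, 9 in L alone and 10 in C alone. Kcna3 at fold 14, Cacna1i at 6.68 and Scn4b at 6.06 led the L genes, and Kcnip4 at 8.71 and Kcns2 at 7.43 were among the strongest of C. The other L genes were Kcnab1, Kcnk1, Kcnt2, Kcnh3, Cacnb3 and Kcnv1, and other C genes Kcnmb4, Kcnk2, Kcnd3, Kcnf1, Kcnip2 and Cacnb2, with folds from 3.25 to 7.23. The top peaks of Kcns2, Kcnd3 and Kcnip2 lay outside the named gene. Kcna4 and the inward rectifier Kcnj4 held strong peaks in place in both lists.

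Immediate early genes, which neurons switch on with activity, were mostly shared as well. Of 38 such genes, 22 had a peak, 15 in both lists, 2 in L alone and 5 in C alone. Arc had 3 peaks in each list, Bdnf, Egr3 and Nr4a1 had 2 in each, and Egr4 had 3 in L and 1 in C. Fos had a C peak of 254 bp at fold 4.52 and none in L, and Plk2, a kinase of spine remodelling, had 2 C peaks with a top fold of 6.85. Nptx2, a secreted protein that gathers AMPA receptors, had 2 C peaks at a top fold of 7.33 over 697 bp. Rgs2 and Dusp6 were the remaining C names, with top peaks outside the named genes. Sik1 at fold 10.4 and Klf10 at 3.29 were in L alone. Cytoskeleton and transport genes showed the highest shared part, with 43 of 54 in both lists, 3 in L alone (Add1, Kif3a and Dync1li2) and 8 in C alone (Cfl2, Stmn1, Dctn2, Stmn3, Kif1a, Sptan1, Dstn and Stmn2, of which Cfl2, Stmn1 and Dstn by peaks outside the gene).

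Among the 14 lists, the mitochondrial ribosomal proteins, the respiratory chain and the cytosolic ribosomal proteins had the smallest shared parts, at 27.3%, 32.1% and 33.3% of genes with a peak. Of 79 cytosolic ribosomal protein genes, 30 had a peak, 10 in L alone, 10 in C alone and 10 in both. The top peak lay outside the named gene for 6 of the 10 L genes, among them Rps26, Rpl8, Rps15 and Rps6, and for 3 of the 10 C genes, among them Rps20 and Rps13. Inside their genes lay the L peaks of Rps3 at fold 9.9 and Rps16 at 7.34, both within 200 bases after the start, and those of Rpl36a and Rpl37. On the C side these were Rps2 at fold 3.16, Rps19 at 3.0, Rpl22, Fau, Rplp2, Rps23 and Rpl6. Ribosomal protein genes have many processed copies, and how the authors placed reads among them is not given in the sources used here. Mitochondrial ribosomal proteins had 11 genes with a peak, 1 in L alone (Mrpl51), 7 in C alone and 3 in both. The top peaks of Mrpl17 at fold 30.0, Mrps14 at 7.21 and Mrpl10 at 4.96 lay inside their genes, and those of Mrps17, Mrps23, Mrpl35 and Mrpl48 did not. Nuclear genes of the respiratory chain numbered 10 in L alone, 9 in C alone and 9 in both. Inside their genes lay the L peaks of Ndufs3 at fold 7.35, Ndufa11 at 6.41, Uqcrc1 at 6.27 and Cyc1 at 3.05, while the other 6 names had top peaks elsewhere. On the C side all but Cox8a had their top peak inside the gene, led by Ndufa2 at fold 6.47 and Ndufb10 at 6.23.

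Translation factors numbered 9 in L alone, 13 in C alone and 19 in both, of 41 with a peak. Rps6kb1, the S6 kinase, at fold 14.7 near its start, and the release factor genes Gspt1 at 14.2 and Etf1 at 4.19 were in C alone. So was Eif4e2, a relative of the cap-binding protein, with 3 peaks and a top fold of 8.37. The names Eif4e, Eef2k, Eif2a and Paip2 were also in C alone, with top peaks outside the genes. Eif4g1, the scaffold of cap-dependent initiation, had an L peak of 318 bp at fold 2.06 and no C peak. Rptor, the mTORC1 scaffold, at fold 6.8 near its start, Cpeb1, a regulator of synaptic polyadenylation, with 4 peaks and a top fold of 6.47, and the poly(A)-binding protein genes Pabpc4 at 12.2 and Pabpc1 at 3.54 were in L alone. Cpeb2 had peaks in place in both lists at folds of 13.8 and 20.8.

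The enzymes that write or read RNA marks were named more often by L, on small counts. Of 44 genes, 15 had a peak, 5 in L alone, 2 in C alone and 8 in both. Wtap and Cbll1, which belong to the m6A writer complex, had top L peaks at folds of 4.04 and 7.53, and Ythdf2, an m6A reader, one of 300 bp at 3.84. Elp3, a subunit of the Elongator enzyme that modifies transfer RNA, stood at fold 6.82 and Nsun2, a cytosine methyltransferase, at 2.55. Thumpd1, the partner of NAT10 on transfer RNA, had 3 C peaks with a top fold of 8.55 and no L peak, and Ythdf3 had a C peak at fold 18.2. Nat10 itself had no peak in either list, nor did Mettl3 or Mettl14. Fto and Alkbh5, the m6A demethylases, had peaks in both. At 200 bp or more the counts were 3 in L alone and 3 in C alone, 23.1% each, beside 15.5% and 38.9% over all genes. The larger L count was thus not kept, although the L share stayed above that of all genes and the C share below it. By position of the peak the counts were 6 in L alone and 2 in C alone, beside 1176 and 1181 over all genes.

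Ubiquitin and proteasome genes numbered 15 in L alone, 14 in C alone and 23 in both. The strongest L peaks were those of Usp5 at fold 16.7 and Ube2d2a at 16.3, and deubiquitinases made up 6 of the 15, with Usp47, Usp33, Usp8, Usp1 and Usp14, the last by a peak within Rock1. Members with C peaks inside their genes included the proteasome subunits Psmc5 at fold 10.2, Psmc3 at 7.58 and Psmc4 at 5.44. Psma7, Psmb7, Psmc1, Psmd4 and Psmd6 had peaks in both lists, and Psmd3 was in L alone at fold 2.13. By position the list counted 13 genes on each side. Chromatin genes were largely shared, with 28 of 39 in both lists. Ctcf at fold 10.7 near its start, and the remodeller subunit genes Smarce1 and Smarcd3 were in L alone with Hdac11. The names Smarcd1 and Chd6 were too, by top peaks within Asic1 and Ptprt. Ino80 at fold 21.6, Ep300, Kat5 and Ehmt1 were in C alone.

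Markers of cell types were counted in the same way, since the synapse fraction can hold material of other cells. Pyramidal and granule neuron markers had 12 genes with a peak, 9 of them in both lists, and Slc17a7, Neurod6 and C1ql3 in 1 list. Astrocyte markers had 15, with 9 in both, Gfap and Aqp4 among them, and 3 on each side. Of these 9 genes, 3 had overlapping peaks, and the top peaks of Gfap and Aqp4 overlapped no peak of the other list. Oligodendrocyte markers had 11, with the names Mbp, Sox10, Olig1 and Cldn11 in both and Olig2 and Pdgfra in L alone. Mag, Cnp, Ermn, Bcas1 and Gjc3 were in C alone at folds from 2.48 to 3.38. The top Cldn11 peaks of both lists lay in Slc7a14. The top Mbp peak of L lay in Zfp236, and the top Sox10 peak of C in no RefSeq gene. By position the oligodendrocyte list counted 2 genes in L alone, 6 in C alone and 2 in both. Interneuron markers had 11, with the names Slc32a1, Cck, Cnr1 and Lamp5 in both. Of the rest, the peptide genes Sst and Vip and Pvalb had L peaks of 175 to 185 bp and no C peak. Gad2, Ndnf, Erbb4 and Npy had C peaks and no L peak. With peaks of at least 200 bp the list counted 0 genes in L alone, 4 in C alone and 4 in both. Microglia markers had 9, with Cx3cr1 in both at folds of 19.1 and 32.3. Of 22 endothelial and mural markers 2 had a peak, and of 14 choroid plexus markers 1. Mog and Mobp, of oligodendrocytes, had no peak in either list. Whether the cell content of the samples took part in the C counts of GABA or myelin genes was not tested.

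Several lists of other days and fractions overlapped more of the day 20 peaks than the day 20 lists did of each other. The C list of day 1 overlapped 42.9% of the day 20 C peaks and 44.6% of the day 20 L peaks, against 32.3% and 32.5% between the day 20 lists. That list covers 3243934 bases, the most of the 6 synapse lists, against 2049925 in day 20 C and 1670057 in day 20 L. The part of its size in these shares was not tested. Homogenate lists, which cover far more bases, overlapped 37.4% to 47.1% of the C peaks and 38.8% to 48.1% of the L peaks. The C lists of the cKO pairs overlapped 26.6% and 33.2% of the L peaks, and the cKO lists 8.92% and 4.41%. The cKO lists held 1887 and 422 peaks over 334162 and 333540 bases, against 1059600 and 2092789 bases in their C lists, and the part of list size in these shares was not tested. The L list of day 6 has no peak past base 118984776 of chromosome 7 in the order of the files. Over the range up to there, the day 20 pair ranked 8th of 15 pairs by overlap, at 32.2% of its pooled peaks. By shared genes over all genes of the pair it ranked 12th, at 54.2%. The pairs share lists, so the ranks are a description.

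**Figure D4:**
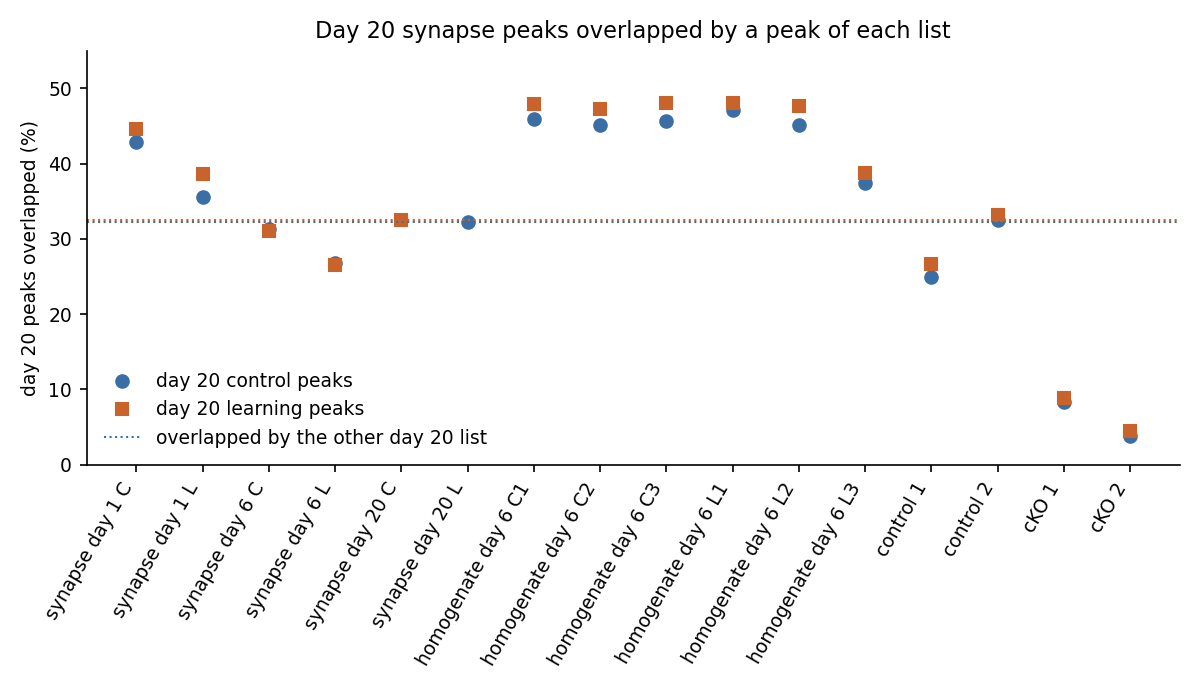
Share of day 20 C peaks (circles) and L peaks (squares) overlapped by a peak of each of the 16 lists (%), with dotted lines at the 32.3% and 32.5% between the day 20 lists. Day 1 C and 5 of 6 homogenate lists lie above 42%, and the cKO lists lie below 9%.

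Peaks in place on day 20 recurred elsewhere far more often than the rest. Of the overlapped peaks, 3.1% in C and 3.0% in L lay in none of the other 14 lists, and 39.8% and 38.4% lay in all 6 homogenate lists. Of peaks whose gene had no peak in the other day 20 list, 26.2% in C and 24.9% in L lay in none, and 14.5% and 14.6% in all 6 homogenate lists. The overlapped peaks were also longer, with a median of 370 bp in C and 300 bp in L. Peaks whose gene had no peak in the other list had medians of 260 and 210 bp. The part of length in these shares was not tested. At the level of genes, most of those alone on day 20 had a peak on day 1 in either group, though less often than all genes of their list. Of the 977 genes of L alone, 60.6% had a peak in the L list of day 1 and 60.3% in the C list of that day. Over all genes of the day 20 L list these shares were 76.4% and 78.4%. Of the 1003 genes of C alone, the shares were 53.7% and 59.5%, beside 74.3% and 78.1% over all genes of the day 20 C list. A peak in all 4 other synapse lists was found for 186 genes of L alone and 175 of C alone. Genes past the last peak of the L list of day 6 could not enter these counts.

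Genes with no peak in any other synapse list numbered 72 of the 977 (7.37%) and 108 of the 1003 (10.8%). The shares over all genes of the day 20 lists are not given here for this count either. Genes past the last peak of the L list of day 6 could have no peak in that list, which bears on both groups below. Among the strongest on the L side were Rdx, which encodes the membrane-actin linker radixin, at fold 17.0, Fkbp1b, a regulator of ryanodine receptors, at 12.7, and Notch1 at 9.82, with peaks centred 407, 145 and 390 bases after their starts. Ndrg1, a stress-response gene, at 12.2 over 340 bp had peaks in all 6 homogenate lists. On the C side were Elof1, a transcription elongation factor, at fold 13.8, Met, the receptor of hepatocyte growth factor, at 11.5, and Chst15, a sulfotransferase of chondroitin sulfate, at 10.5. The opposite group, with a peak in every other synapse list and missing from 1 day 20 list, held Dtx1, Cep170b, Preb, Trpm3 and Slc4a1ap on the L side, at folds from 13.3 to 17.4. On the C side it held Mboat2, Rnf220, Zdbf2, R3hdm4, Erf, St8sia1 and Gspt1, at folds from 14.2 to 27.4. Of these, Gspt1, R3hdm4 and Rnf220 had 2 C peaks each and Zdbf2, an imprinted gene, 4.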

How the data were processed

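Total RNA of hippocampus was fragmented, captured with an ac4C antibody and sequenced beside its input, per the labels' protocols. The submitters' processing notes name FastQC, HISAT2 2.0.4, cutadapt 1.9.3 and the genome build mm10. The sources used here give no peak caller. Captured libraries have 1 peak list each. The authors deposited for every peak, per the file headers, a gene name and its fold enrichment, followed by p-value and q-value as -log10. The deposited fold was 2.00 or more in both lists, and it ranks peaks within a list only. Depth is unknown, since the lists hold no read counts, and the labels name no separate animals.

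Peaks were compared by overlap of at least 1 base and by gene symbol (python 3.11.15, pandas 2.3.3, numpy 2.4.6). Intervals are exact Clopper-Pearson intervals from scipy 1.17.1 at 95% and cover counting error only. Overlap and gene counts were tested on simulated peaks with known answers. A peak was inside a gene if it overlapped its span in the RefSeq table of GRCm38.p6. Position along the gene needed a strand, known for 3636 C and 3731 L peaks. RefSeq starts were taken from the same build.

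Genes were named by rule: per direction the 12 with the strongest peak of at least 200 bp and no peak of any length in the other list, the 10 strongest in place, the 6 with most peaks per list, members of the gene lists with a peak in 1 list (the 8 strongest where over 16) with up to 4 shared ones, and the strongest with a peak in no or every other synapse list. Shared list members beyond 4 are named as counts of peaks and were chosen after their values were seen. The members, the gene lists and the tests were chosen with earlier results of these data known. Some genes that the rule names are not reported here.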

Additional observations from a re-analysis of the deposited data

Results flagged for a closer look

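Of 21 gene lists, 5 had a net number of members that ran the opposite way on day 20 from both earlier days. The net is those with a peak in L minus those with a peak in C. These 5 were picked for this pattern, and how many of 21 lists would show it by counting error alone was not tested. Day 6 was counted over the range that its L list reaches. Calcium, cAMP and MAPK signalling had a net of -11 on day 20, against 1 on day 1 and 9 on day 6. The GABA system had -7, against 1 and 1, and translation factors had -4, against 7 and 3. RNA modification enzymes and readers had 3, against -3 and -2, and interneuron markers had -1, against 1 and 1. With 1 list per group and day, none of these differences was tested, and the minimum peak length was 125, 150 and 175 bp in the L lists of days 1, 6 and 20 and 200 bp in the C lists. With peaks of at least 200 bp the day 20 net of RNA modification genes was 0. With the gene taken from the position of the peak the day 20 net was 4 for RNA modification genes, 0 for translation factors and 0 for interneuron markers. The GABA net was -8 and -5 under these alternatives, and that of calcium, cAMP and MAPK signalling -20 and -6. All genes leaned to C with peaks of at least 200 bp, with 615 in L alone and 1544 in C alone. A negative net at that length is thus not particular to these lists. By position all genes stood at 1176 in L alone and 1181 in C alone. Such counts over all genes are not given here for days 1 and 6.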

How the results depend on the processing

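No paired analysis was possible because each group has 1 list on day 20 and no result comes from a test. Against the 7 main values, 34 of 47 alternative values stayed within their limits, 12 moved and 1 turned. With peaks of at least 200 bp, the ratio of L to C peaks turned from 1.05 to 0.657, the overlapped shares moved to 24.7% of C and 39.4% of L peaks, and the genes of L alone and C alone moved to 615 and 1544. With a fold of at least 5, the overlapped shares were 25.8% and 25.1% and the shared genes 1024. Among the 3668 peaks of each list with the highest -log10 p-value, the shared genes were 1522, and the ratio of peak numbers has no value there, as the numbers are equal. When at least 0.5 of each peak's length had to overlap, the shares were 20.4% and 19.5%, and within 500 bp they were 37.6% and 39.2%. The ratio turned because 2187 L peaks and no C peak were under 200 bp, and the cause of the other moves was not tested. Taking the gene from the position of the peak, chosen after seeing the data, gave 1176 genes in L alone, 1181 in C alone and 2360 in both. Depth is unknown and limits what a missing peak says.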
